A study of Penicillium oxalicum with 9 samples.

Results

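Among 9834 gene IDs measured in the fungus Penicillium oxalicum, 83 were abundant in a single library, Ku70 F, and low in the other 8. The selection took every ID with at least 10 FPKM (fragments scaled to transcript length and library size, the deposited unit) in Ku70 F and at least 8 times its value in each other library. It was met by 94 IDs, 0.956% of all, from which 11 were left out by name. In the literature on strain HP7-1 of this species, recalled here and not given by the files, those 11 are treated as 8 cellulase and 3 xylanase genes. As the members were chosen from these same levels, the height of Ku70 F is a description, and no test of it was made.

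The 9 libraries were of mycelium sampled at 24 h, with 3 strains and 3 libraries each, lettered F, S and T. Ku70, the control, is itself a mutant by its titles, named for a gene that serves non-homologous end joining of broken DNA. The growth protocol attached to all 9 names this strain alone, with spores raised on potato-dextrose agar and hyphae then shaken in a medium with Avicel. MuPOX01907 and MuPOX08340 are mutants of the genes POX01907 and POX08340. Titles state 1% Avicel, a microcrystalline cellulose, for Ku70 and 1% starch for both mutants, at odds with that protocol. Whether Ku70 F was grown as Ku70 S and T were is therefore not known beyond their common title. Strain and stated medium therefore cannot be told apart between Ku70 and either mutant. The labels name no separate cultures or clones, so p-values measure the spread between these libraries, which may be technical.

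Filamentous fungi that live on plant matter secrete enzymes that break polymers down outside the cell, and take up the resulting sugars through transporters. Genes for such enzymes are commonly silent on easily used sugars and are switched on together when cellulose or hemicellulose is the carbon source. Starch-degrading enzymes are governed in part by other regulators. Fungal genes that serve one metabolic route often lie side by side in clusters and are transcribed together. The files pair none of the IDs with a name or product, and 0 of 9834 matched the RefSeq gene table available for the species, so what the 83 members encode is not stated and no sequence could be attached to them.

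Depth did not set Ku70 F apart: expected counts, the estimated reads per gene, totalled 14412296 to 14802260 per library. IDs with 0 counts numbered 518 in Ku70 F and 428 to 591 in the other 8. Across all IDs, which are not replicates, the Pearson correlation of log2(FPKM + 1) of Ku70 F with Ku70 S and T was 0.918 and 0.909, against 0.978 to 0.995 within groups otherwise. Without the 83 members and the 11 left-out IDs it was still 0.948 and 0.941. The deleted genes followed the labels, with 1, 1 and 3 counts of POX01907 in the MuPOX01907 libraries (F, S, T) and 0 of POX08340 in each MuPOX08340 library. In Ku70 F these genes had 1876 and 876 counts, beside 1391 and 1346 of POX01907 and 1013 and 870 of POX08340 in Ku70 S and T. MuPOX01907 F, S and T had 232, 226 and 208 counts of POX08340, below every Ku70 library. MuPOX08340 F, S and T had 1968, 1637 and 1602 of POX01907.

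Taken as a whole, the 83 members held 9.25% of all counts in Ku70 F (95% Wilson interval 9.235 to 9.265, counting error only). As these are bulk samples, fewer cells with a transcript and less of it per cell cannot be told apart. In the other 8 libraries they held 0.0332% (MuPOX01907 S) to 0.0639% (Ku70 S). The 11 left-out IDs held 3.04% in Ku70 F, a smaller share than the members. In Ku70 S and T they held 0.00569% and 0.00661%, no more than the 0.00665% to 0.00994% of the mutant libraries, although the titles of all 3 Ku70 libraries name Avicel. Their median was 1349 FPKM in Ku70 F, 1.91 in Ku70 S and 2.06 in Ku70 T. The median member stood at 200.7 FPKM in Ku70 F, at 3.06 and 2.84 in Ku70 S and T, at 1.02, 1.03 and 1.39 in MuPOX01907 F, S and T, and at 2.07, 2.22 and 2.25 in MuPOX08340 F, S and T. Ku70 F had 53 members above 100 FPKM and 14 above 1000. No other library had a member above 37.0 FPKM.

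**Figure D1:**
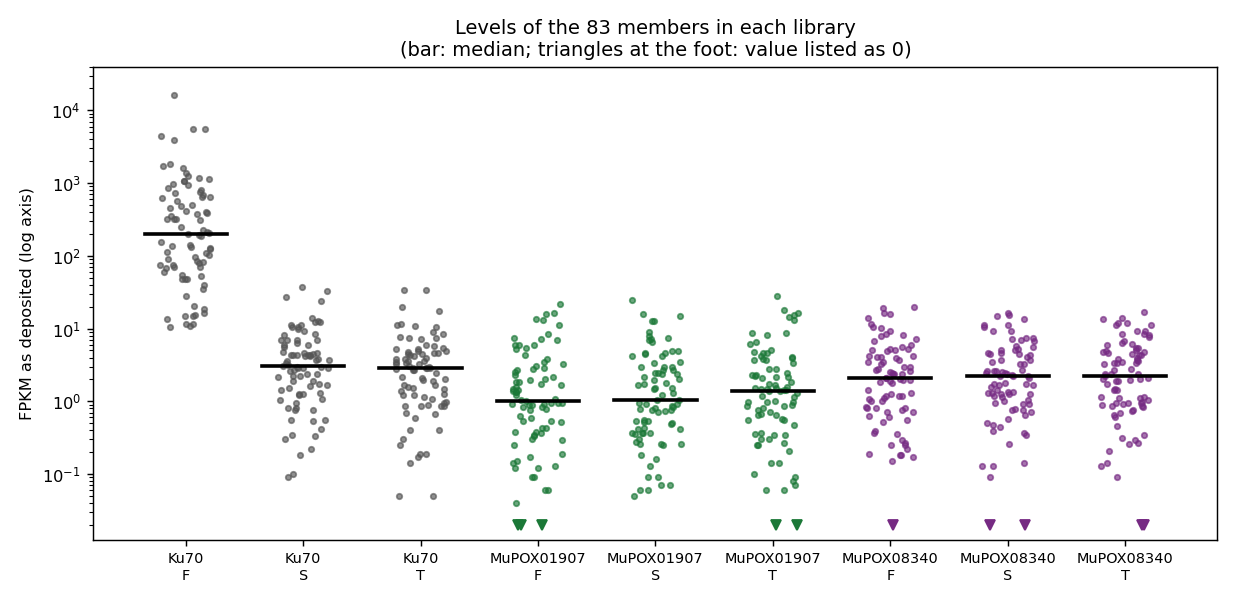
FPKM of each of the 83 members (points, log axis) in the 9 libraries, with the median as a bar and values listed as 0 as triangles at the foot. Members lie between 10.5 and 16246 FPKM in Ku70 F and reach at most 37.0 in any other library.

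The same rule read from any other library found almost nothing. It was met by 1 ID in Ku70 S, POX09363, and by 0 IDs in Ku70 T and in each of the 6 mutant libraries. Leaving out any 1 of the other 8 libraries can only loosen the rule, so all 83 members were bound to stay and only additions could occur. Without Ku70 S the rule was met by 92 IDs, without MuPOX08340 F by 84 and without each of the other 6 by 83.

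The folds spread widely. Ku70 F exceeded the highest of the other 8 libraries by a median of 45.3-fold, from 8.01-fold to 1185-fold. For 26 members the fold was at least 100, for 27 it lay between 20 and 100 and for 30 below 20. The highest of the other 8 was a Ku70 library for 43 members, a MuPOX08340 library for 27 and a MuPOX01907 library for 13. Ku70 S alone was the highest for 34. Outside Ku70 F, the library with the highest level of a member was thus most often Ku70 S.

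Just inside the fold limit were POX07621 (8.01-fold), POX03600 (8.18-fold) and POX08103 (8.67-fold). Just outside it were POX02407 (7.70-fold), POX02291 (7.39-fold) and POX02832 (7.21-fold). The members nearest the level limit were POX04834 at 10.5, POX03868 at 10.7 and POX03859 at 11.4 FPKM in Ku70 F. The IDs below it that met the fold limit came no closer than POX05076 (3.04 FPKM), POX00455 (2.87) and POX04570 (2.02). The fold limit thus cut through a continuum of values, whereas the level limit fell in a gap.

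**Figure D2:**
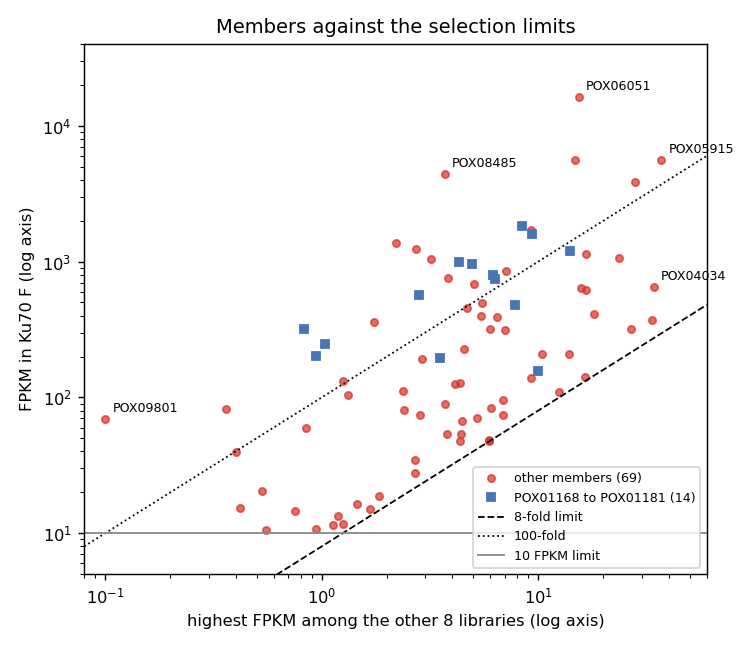
FPKM in Ku70 F against the highest FPKM among the other 8 libraries for each member (both axes log), with the 8-fold and 10 FPKM limits and a 100-fold line. The 14 members POX01168 to POX01181 (squares) run from 15.6-fold to 381-fold.

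The most abundant member was POX06051. It measured 16246 FPKM in Ku70 F, 8.13 in S and 7.35 in T, then 5.92, 6.95 and 15.4 in MuPOX01907 F, S and T and 6.72, 6.68 and 5.42 in MuPOX08340 F, S and T. Its 402702 counts made up 2.72% of the library, the highest count of any ID in Ku70 F, and by FPKM it ranked 2 of all IDs there. It stood 1055-fold above its next library, MuPOX01907 T (ratio of depth-scaled counts 1053, exact 95% interval 953 to 1170, counting error only).

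Also among the 12 most abundant members, POX08485 had the largest fold of the set. It measured 4384 FPKM in Ku70 F, 1.53 and 1.52 in Ku70 S and T, 0.59, 0.72 and 3.70 in MuPOX01907 and 1.26, 1.18 and 0.73 in MuPOX08340 (F, S and T in order). Its fold over MuPOX01907 T was 1185 (counts ratio 1181, interval 953 to 1480). The next number after a left-out xylanase ID, POX08484, is that of POX08485. Outside Ku70 F the member was highest in MuPOX01907 T, at 5.65 times the mean of F and S of that mutant.

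POX06079 and POX05915 were close to each other in Ku70 F, at 5616 and 5613 FPKM. POX06079 stood at 7.13 to 14.8 FPKM elsewhere. POX05915 stood at 12.6 to 37.0, the last in Ku70 S and the highest value of any member outside Ku70 F. POX05916, which follows it in number, measured 1053 FPKM in Ku70 F and 0.13 to 3.18 elsewhere (331-fold). Together this pair of IDs took 1.01% of the counts in Ku70 F and at most 0.00629% in any other library.

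POX01937 measured 3886 FPKM in Ku70 F and 4.32 and 4.62 in Ku70 S and T. It stood at 21.99, 24.55 and 28.0 in MuPOX01907 F, S and T and at 4.89, 5.73 and 4.37 in MuPOX08340. Its 3 MuPOX01907 libraries thus lay above all 5 others outside Ku70 F. The selection capped each low library against Ku70 F but did not compare the low libraries with each other. Such differences are tested below.

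The remaining 7 of the 12 were POX01179, POX03711, POX01176, POX03930, POX01896, POX01181 and POX00005, between 1144 (POX00005) and 1820 FPKM (POX01179) in Ku70 F. POX03930 and POX01896 had the largest folds of these, 617 and 457. The 12 held 6.58% of the counts in Ku70 F and the other 71 members 2.67%. POX09801 combined a modest level with a large fold. It had 1352 counts (69.3 FPKM) in Ku70 F, 0 in all 3 MuPOX08340 libraries, and at most 2 counts in any other. The counts ratio to MuPOX01907 T was 674, with an interval of 186 to 5570. Against the summed MuPOX08340 libraries it was at least 1320-fold higher, with the floor of 3 counts over the group.

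**Figure D3:**
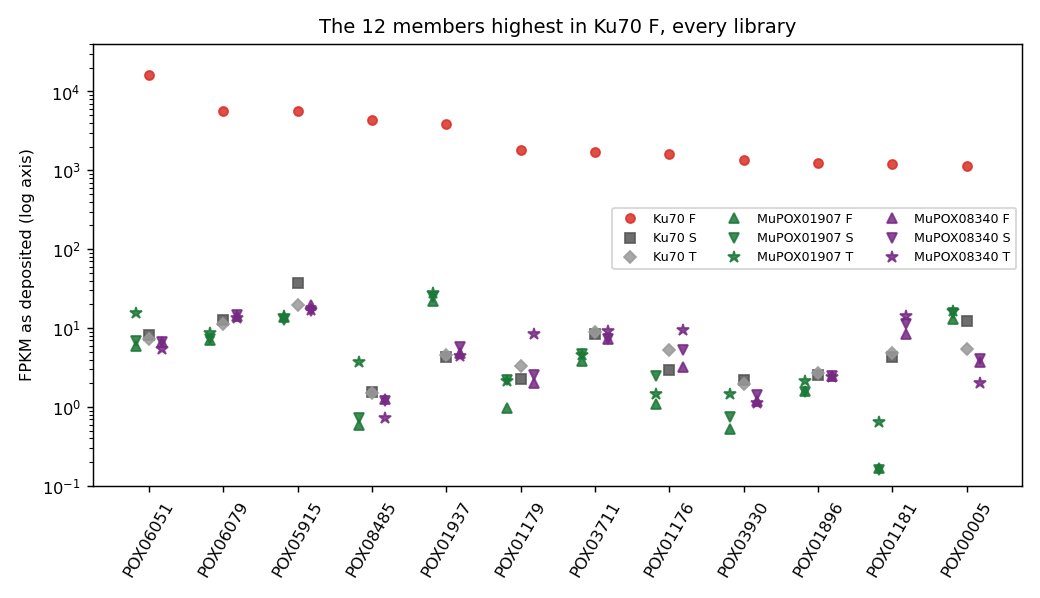
FPKM (log axis) of the 12 members highest in Ku70 F, in all 9 libraries, with mutant libraries drawn beside the Ku70 ones. Ku70 F lies between 1144 and 16246, and every other value at or below 37.0.

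In the other 8 libraries members were low, but few were silent. Counts of 0 were found for 3 members in MuPOX01907 F, 2 in MuPOX01907 T, 1 in MuPOX08340 F, 2 in each of MuPOX08340 S and T, and 0 members in MuPOX01907 S, Ku70 S and Ku70 T. Members above 1 FPKM numbered 42 to 47 in the MuPOX01907 libraries, 57 to 60 in MuPOX08340, 67 in Ku70 S and 63 in Ku70 T. The order of the members was alike among these low libraries of a group, with Spearman correlations over the 83 members of 0.866 to 0.966. With Ku70 F the correlation was 0.398 for Ku70 S and 0.507 for Ku70 T, and 0.398 to 0.586 over the other 8. Any 2 of those 8, pairs across strains included, correlated at 0.51 to 0.966. Libraries share transcript length and gene content, and the fold limit itself ties the upper end of both sides, so these correlations are descriptions.

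Of the 83 members, 34 (41.0%) had a number next to that of another member, in 10 runs. The longest held 14 members without a gap, POX01168 to POX01181. In Ku70 F these 14 ranged from 155 (POX01170) to 1820 FPKM (POX01179), with a median of 654, and took 0.993% of the counts. Their median was 2.02 FPKM in Ku70 S, 3.16 in Ku70 T, 0.91, 0.945 and 0.925 in MuPOX01907 F, S and T, and 2.39, 1.98 and 4.41 in MuPOX08340 F, S and T. The highest value outside Ku70 F was 14.1 FPKM, of POX01181 in MuPOX08340 T. All 14 were thus far above the other libraries in Ku70 F, by 15.6-fold for POX01170 up to 381-fold for POX01177.

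Within the run the implied transcript length, worked out from counts and FPKM, went from 366 bases for POX01172 to 5619 for POX01177. POX01177, at 316 FPKM, therefore gave 26035 counts in Ku70 F, more than the 21249 of POX01179 at 1820 FPKM. The place of these IDs in the genome was not tested.

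The edges of the run were not sharp on either side. POX01166, 2 numbers before it, is a left-out cellulase ID at 6193 FPKM in Ku70 F and at most 5.8 elsewhere. POX01167, between them, measured 91.3 FPKM in Ku70 F and reached 29.65 in MuPOX08340 F, a 3.08-fold difference that missed the limit. POX01165 went the other way, with 1.65 FPKM in Ku70 F and 67.2 and 80.1 in Ku70 S and T. After the run, POX01182, POX01183 and POX01184 measured 307, 44.7 and 307.5 FPKM in Ku70 F, which was 6.56-fold, 3.74-fold and 6.28-fold above MuPOX08340 F. These 3, named like POX01165 and POX01167 after their values were seen, did not exceed 0.80 FPKM in any MuPOX01907 library.

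**Figure D4:**
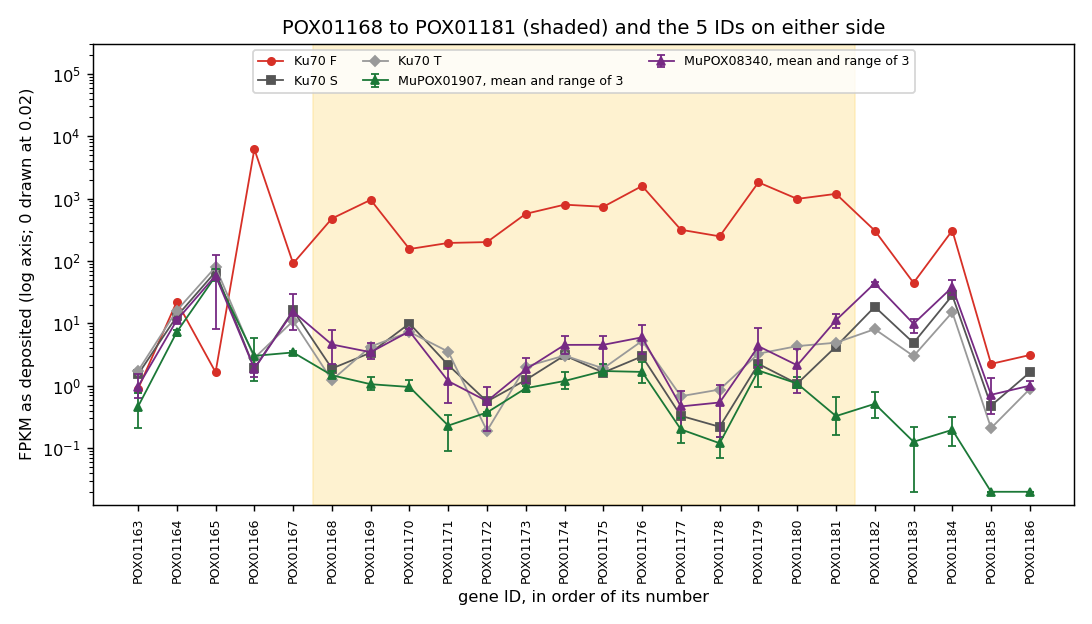
FPKM (log axis, 0 drawn at 0.02) of POX01168 to POX01181 (shaded) and the 5 IDs on either side in order of ID number, with each Ku70 library as its own line and mutants as mean with the range of 3 libraries. Ku70 F lies above all other libraries across the shaded run, and MuPOX01907 lies below the other groups at POX01181 and the 5 IDs after it.

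The 2 other runs of more than 2 held 3 members each. POX03929, POX03930 and POX03931 measured 412, 1363 and 81.0 FPKM in Ku70 F. POX03930 and POX03931 stayed at or below 2.41 elsewhere, but POX03929 stood at 15.75, 14.73 and 18.04 in MuPOX01907. POX03927 (81.7 FPKM in Ku70 F, at most 0.36 elsewhere) belonged to the set too. POX03928, which separates it from the run, was no member: it measured 31.4 FPKM in Ku70 F and 59.1, 60.6 and 60.5 in MuPOX01907 F, S and T. Of the implied lengths in the set, that of POX03931, 9970 bases, was the longest.

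POX06599, POX06600 and POX06601 measured 685, 70.0 and 357 FPKM in Ku70 F and between 0.17 and 5.23 elsewhere. Of the 7 runs of 2, POX00004 with POX00005 and POX00007 with POX00008 were separated by 1 ID only, POX00006, which measured 179 FPKM in Ku70 F and 5.84 times less, 30.7, in Ku70 S. POX07621 with POX07622 lay near the fold limit, at 47.6 and 110.0 FPKM. The next number to that of a left-out ID belonged to 4 members: POX02739, POX05588, POX07536 and POX08485. The other 49 members (59.0%) had no member at an adjacent number.

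Length was not used by the selection. The median implied length was 1461 bases over the 83 members, with an interquartile range of 1005 to 1673. Over the 8896 of 9834 IDs with at least 10 counts in some library it was 1244, with a range of 742 to 1877. The lower quartile of the members was thus above that of all IDs and the upper quartile below it. The shortest member, POX03935, had 257 bases.

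The members were next compared among the 8 libraries without Ku70 F, which the selection had only capped from above. That cap kept out IDs high in any of the 8 relative to Ku70 F, such as POX03928 at 59.1 to 60.6 FPKM in MuPOX01907. The members' shares of calls are therefore not free of the selection when set beside those of all IDs. EdgeR's quasi-likelihood test was run on the expected counts of all IDs with a mean of at least 10 counts, and IDs were called at a Benjamini-Hochberg adjusted p under 0.05 and at least a 2-fold change. Of the 83 members, 72 were tested. The 11 others, POX01172 and POX01178 of the long run among them, averaged at most 8.25 counts over the 8 libraries. The mutants share their stated medium, so the comparison between them sets one mutant strain against the other. MuPOX01907 was also low in POX08340, as given above, so the mutants do not differ in each deleted gene alone.

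Between the mutants, 8 members were higher in MuPOX01907 and 17 lower, and 47 were not called. Of all 8465 IDs tested, 11.5% were called higher and 10.9% lower. Of the members tested, 11.1% were called higher and 23.6% lower. As the selection capped the members in these libraries, no conclusion is drawn from their gap to all IDs. The median log2 fold change was -0.32 over the members tested and -0.05 over all IDs. With FPKM left unscaled, limma on log2(FPKM + 1) gave medians of -0.352 over the members and -0.35 over all IDs, without that gap. On log2(FPKM + 0.1) they were -0.645 and -0.381. With log2(FPKM + 1), 5 members were called higher and 13 lower, against 573 and 1176 of all IDs (971 and 922 by edgeR).

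Folds printed beside log2 values, here and in the next paragraph, are ratios of mean FPKM as deposited. The log2 fold changes are edgeR's, from counts scaled between libraries, so fold and log2 differ. The largest rise was that of POX03929. It measured 15.75, 14.73 and 18.04 FPKM in MuPOX01907 F, S and T and 1.2, 1.3 and 0.95 in MuPOX08340, a mean of 16.2 ± 1.70 against 1.15 ± 0.18 (SD, n = 3 each; 14.1-fold, log2 4.14, SE 0.256, edgeR adjusted p = 5.54e-06). POX06601 measured 1.67, 1.74 and 1.39 FPKM against 0.25, 0.26 and 0.21 (log2 3.04, SE 0.276, edgeR adjusted p = 3.82e-05). POX01937, whose values stand above, was 4.97-fold higher in MuPOX01907 by mean FPKM (edgeR log2 2.66, SE 0.152, edgeR adjusted p = 3.53e-06). In none of these 3 did the mutants overlap. Also called higher were POX00005 (log2 2.56), POX01833 (1.71), POX01218 (1.34), POX02591 (1.2) and POX01700 (1.07).

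The largest fall was that of POX02308. In MuPOX01907 F, S and T it was listed at 0, 0.37 and 0.27 FPKM (7 counts in all), and in MuPOX08340 it measured 15.8, 9.16 and 8.47 (52.2-fold, log2 -5.28, SE 0.649, edgeR adjusted p = 0.000213). POX08897 stood at 0.06, 0.06 and 0.25 FPKM (6 counts) against 4.02, 4.52 and 4.83 (36.1-fold, log2 -4.71, SE 0.37, edgeR adjusted p = 1.75e-05). POX01181, the last of the long run, stood at 0.17, 0.16 and 0.65 (6 counts) against 8.53, 11.1 and 14.1 (34.4-fold, log2 -4.68, SE 0.439, edgeR adjusted p = 4.44e-05). These 3 were near the detection limit in MuPOX01907, so their folds rest on few reads, while no library of one mutant reached the other. POX08103 measured 0.953 ± 0.0493 against 13.9 ± 2.23 FPKM (SD, n = 3 each; 14.6-fold, log2 -3.51, SE 0.17, edgeR adjusted p = 1.72e-06).

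Within the run POX01168 to POX01181, 7 of the 12 tested members were lower in MuPOX01907 and 0 higher, with a median log2 fold change of -1.32. Of all IDs tested, 10.9% were lower and 11.5% higher. The 7 lower members were POX01168, POX01169, POX01170, POX01171, POX01174, POX01176 and POX01181. In the run 7 had an unadjusted edgeR p under 0.05, and so had 30 of the 60 tested members outside it. The share over all IDs was not counted, so no excess can be read from these counts. POX01170, for instance, measured 0.957 ± 0.228 FPKM in MuPOX01907 and 7.45 ± 0.735 in MuPOX08340 (SD, n = 3 each; log2 -2.61, SE 0.219, edgeR adjusted p = 2.58e-05). Of the 60 tested members outside the run, 8 were higher and 10 lower, with a median of -0.10. Whether the run differed from the other members was not tested, as the run was itself chosen from the members.

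**Figure D5:**
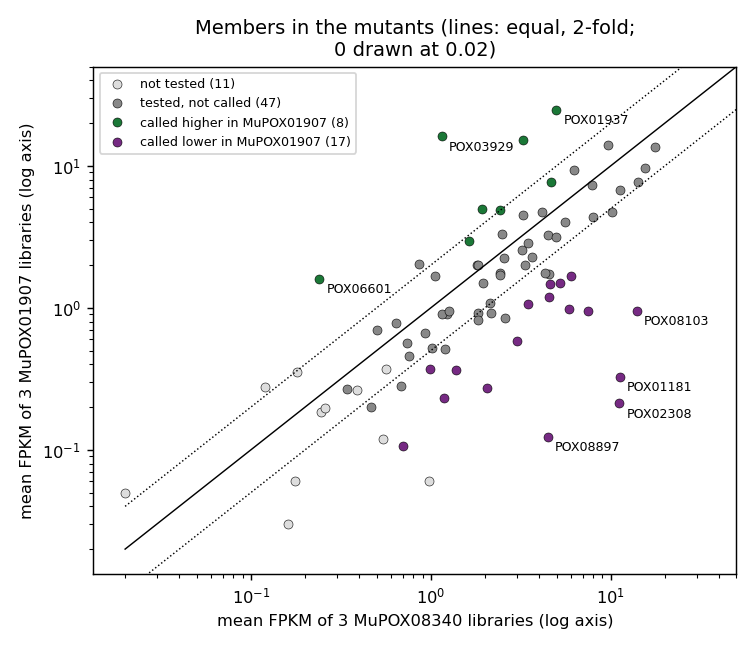
Mean FPKM of each member over 3 MuPOX01907 libraries against that over 3 MuPOX08340 libraries (both axes log, 0 drawn at 0.02), with lines of equality and of 2-fold difference. Of 72 members tested with edgeR, 8 lie in the group called higher in MuPOX01907 and 17 in that called lower; 11 were not tested.

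These calls rested on leaving out Ku70 F. With it in the same fit, where all groups share 1 estimate of the spread, 0 members were called higher and 1 lower between the mutants, and POX03929, at the same log2 of 4.14, had an edgeR adjusted p = 0.158. POX02308 then had an edgeR adjusted p = 0.0944 and POX08897 an edgeR adjusted p = 0.119. The fold changes did not move, since Ku70 F enters neither mutant's mean.

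Against Ku70 S and T, where strain and stated medium go together, 5 members were higher and 19 lower in MuPOX01907, out of 72 tested. Over all 8465 IDs, 9.95% were called higher and 12.1% lower, and of the members tested 6.94% and 26.4%. The selection capped the members in these libraries, so no conclusion is drawn from the gaps between these shares. The median log2 fold change of the members was -0.75. Ku70 gave only 2 libraries here, and the same 2 serve both mutants.

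POX03929 was again the member with the largest rise, at 0.34 and 0.94 FPKM in Ku70 S and T beside the values already given for MuPOX01907 (log2 4.97, SE 0.33, edgeR adjusted p = 1.27e-05). POX06601 (log2 3.09) and POX01937 (2.81) followed, with POX01218 (1.89) and POX00005 (1.08) also called. The largest falls were those of POX08897, at 6.43 and 5.92 FPKM in Ku70 S and T (log2 -5.19, SE 0.377, edgeR adjusted p = 1.87e-05), POX02308, at 11.1 and 4.87 (log2 -4.83, edgeR adjusted p = 0.000652), and POX01181, at 4.25 and 4.90 (log2 -3.40, edgeR adjusted p = 0.000802). The calls also took in POX04034. It measured 32.5 and 34.1 FPKM in Ku70 S and T, after POX05915 the highest level of a member outside Ku70 F, and 4.73 ± 0.524 in MuPOX01907 (SD, n = 3; log2 -2.48, edgeR adjusted p = 2.42e-05). Ku70 F, at 649 FPKM of POX04034, was 19.0-fold above Ku70 T.

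In MuPOX08340 against Ku70 S and T, 1 member was higher and 9 lower of 72 tested (1.39% and 12.5%). Fewer of all IDs were called here too, 3.13% higher and 5.69% lower. The cap of the selection bears on the members' shares here as well. The median log2 fold change was -0.32. The member that rose was POX01181 (log2 1.29, SE 0.329, edgeR adjusted p = 0.0264), from 4.25 and 4.90 to 11.2 ± 2.76 FPKM (SD, n = 3). The largest falls were those of POX07622, from 12.5 and 8.41 FPKM to 0.71, 1.30 and 3.49 (log2 -2.52, edgeR adjusted p = 0.011), POX07621, from 5.94 and 4.67 to 0.39, 0.96 and 2.25 (log2 -2.15, edgeR adjusted p = 0.0228), and POX06285, from 10.7 and 33.5 to 3.45, 7.15 and 6.01 (log2 -1.98, edgeR adjusted p = 0.0196). POX04034 fell too, to 10.2 ± 1.66 FPKM (SD, n = 3; log2 -1.72, edgeR adjusted p = 0.000398). In POX07621 and POX07622, whose numbers are adjacent, MuPOX08340 F was the lowest and T the highest of the 3 libraries, and for POX06285 the values of Ku70 S and T lay far apart.

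Single libraries decided these counts. The 9 lower calls in MuPOX08340 were 3 without Ku70 S, 15 without Ku70 T and 5 without MuPOX08340 S. The 1 higher call was 0 without Ku70 S, 0 without MuPOX08340 T and 2 without MuPOX08340 S. Without Ku70 T it was POX03929 that was called higher (log2 1.68, edgeR adjusted p = 0.0442). POX01181 was no longer called there without Ku70 S (edgeR adjusted p = 0.137), and the same held without Ku70 T, MuPOX08340 S or MuPOX08340 T (edgeR adjusted p = 0.067 to 0.0758). POX07621 was lost without Ku70 S or MuPOX08340 S (edgeR adjusted p = 0.12 and 0.0872), POX07622 without Ku70 S (edgeR adjusted p = 0.0743) and POX06285 without Ku70 T (edgeR adjusted p = 0.127). In MuPOX01907 the lower calls ranged from 15 without Ku70 S to 28 without Ku70 T, and POX07622 (without Ku70 S) and POX06285 (without Ku70 T) were lost.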

How the data were processed

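Per the labels' protocols, total RNA of mycelium (3 strains, 9 libraries) was isolated with a TRIzol kit and read on an Illumina HiSeq system. The authors deposited an expected count and an FPKM value for 9834 gene IDs per library, both named so per the file headers. The submitters' processing notes list RSEM 1.2.12, DESeq2, Bowtie2 2.1.0 and BWA 0.7.10-r789. What each tool did, and the genome build, strand setting and treatment of near-identical genes, were not given in the sources used here, so IDs with close copies or overlapping partners are uncertain. Between 97.1% and 97.8% of expected counts were whole within 1e-06.

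Members were selected on FPKM as deposited. Their choice, and that of the gene lists, was made with earlier results of these data known. Named members were the 12 highest in Ku70 F, the 8 with the largest folds, those in runs of 3 or more, those nearest the limits, the 3 highest outside Ku70 F and the 3 largest called rises and falls per comparison. Others are examples chosen after their values were seen.

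Expected counts were rounded and fitted with edgeR 4.0.16 (TMM, quasi-likelihood, R 4.3.3) over 8 libraries in 1 fit of 3 groups, keeping IDs with a mean of at least 10 counts. SEs are those implied by the F statistic. Alternatives used RLE factors, no filter, DESeq2 1.42.0, limma 3.58.1 on log2(FPKM + 1) and log2(FPKM + 0.1), all 9 libraries, the letters as a block, and 1 library fewer. On simulated data with 200 changed IDs, edgeR called 98%, 93.9% and 94.7% of 4-fold and 39.8%, 37.4% and 40% of 2-fold changes between the mutants (8373 IDs run), in MuPOX01907 against Ku70 S and T (8367) and in MuPOX08340 against Ku70 S and T (8375), with 6, 9 and 6 unchanged IDs called. The changed IDs were drawn from all tested IDs, so these rates do not describe the members, which were low in these libraries. The labels do not say what the letters F, S and T stand for. Between the mutants, deviations from group means of same-lettered libraries correlated at 0.598 (F), 0.137 (S) and 0.467 (T). Correlations of different-lettered libraries are not given beside them, so whether the letters pair the libraries was not settled. The main fit did not use the letters, and its p-values are unpaired. Intervals and floors cover counting error only.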

Additional observations from a re-analysis of the deposited data

How the results depend on the processing

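The 83 members numbered 122 with a fold minimum of 4, 57 with 16, 73 with a level minimum of 20 FPKM, 82 with TMM-scaled counts per length, and 83 to 92 with 1 other library left out. The last range could not fall below 83, as leaving out a library only loosens the rule. As a share of summed FPKM in place of counts, the set held 6.82% in Ku70 F and at most 0.0420% elsewhere.

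Between the mutants, the counts of members called higher and lower were 8 to 9 and 13 to 17 with 1 library left out. Limma gave 5 higher with either pseudocount, and the fit with Ku70 F 0 and 1. In MuPOX01907 against Ku70 S and T they were 4 to 7 and 15 to 28, with 31 lower by limma with a pseudocount of 0.1. In MuPOX08340 against Ku70 S and T they were 0 to 2 and 3 to 15, with 2 higher by DESeq2 and 0 by limma with a pseudocount of 0.1.

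With Ku70 F added to the Ku70 group, the comparisons with Ku70 become that which chose the members and say nothing further: 0 higher with 67 lower in MuPOX01907, and 0 higher with 14 lower in MuPOX08340. Log2 fold changes then turned to -2.79, -5.92 and -5.41 for POX03929, POX06601 and POX01937 in MuPOX01907, and to -6.94, -8.96, -8.07, -4.35 and -5.20 for POX03929, POX06601, POX01937, POX02308 and POX01181 in MuPOX08340. Uncalled values near 0 also changed sign with 1 library left out: POX06285 between the mutants ranged from -0.37 to 0.11, and was above 0 without MuPOX01907 F (0.075) or MuPOX08340 S. In MuPOX08340 against Ku70, POX06601 ranged from -0.32 to 0.53 and POX02308 from -0.043 to 1.22, both below 0 without Ku70 T. The cause was not tested.

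Between Ku70 and the mutants, deviations from group means of same-lettered libraries correlated at -0.19 and -0.272 for S, and at 0.356 and 0.424 for T, in MuPOX01907 and MuPOX08340. With the letters as a replicate block, 9 higher and 18 lower were called between the mutants, 5 and 22 in MuPOX01907 and 1 and 11 in MuPOX08340 against Ku70 S and T. No call of the 9 members with the largest called differences changed under it.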

Other observations

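Members most abundant in Ku70 F were often raised in MuPOX01907 T relative to the other libraries of its group, a pattern noticed after the values were seen. Of the 14 members above 1000 FPKM in Ku70 F, 12 were higher in MuPOX01907 T than in the mean of F and S, by a median of 1.28-fold, and 5 were at least 2-fold higher. The 69 members at or under 1000 FPKM had a median of 1.03, with 36 higher and 6 at 2-fold or more. Over all IDs with a mean of at least 10 counts the median was 0.963, 3506 of 8462 were higher and 121 reached 2-fold. For the 5 above 1000 FPKM the excess over the mean of F and S, as a percent of the Ku70 F level, was 0.0552% for POX06051, 0.0695% for POX08485, 0.0609% for POX03930, 0.076% for POX05916 and 0.0408% for POX01181. Over all 14 it was not constant, from -0.134% (POX03641) to 0.195% (POX00005). Several of the 5 rest on few reads in MuPOX01907 F, S and T: 1, 1 and 4 counts for POX01181, 2, 4 and 16 for POX05916, and 7, 10 and 20 for POX03930. POX08485 had 13, 16 and 83 counts, and POX06051 had 144, 170 and 381. The 11 left-out IDs had a median of 1.56-fold, with 5 at least 2-fold higher. In MuPOX08340 T the members above 1000 FPKM had a median of 0.908, and 2 reached 2-fold, POX01176 and POX01179. Of all IDs with a mean of at least 10 counts, 341 of 8464 reached 2-fold there.

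The run POX01168 to POX01181, to which POX01176, POX01179 and POX01181 belong, had a median of 1.33 in MuPOX01907 T, with 10 of 14 members above the mean of F and S. In MuPOX08340 T its members stood at a median of 2.15 times the mean of F and S, with 8 of 14 at 2-fold or more. All IDs had a median of 0.957, with 341 of 8464 at 2-fold or more. POX01179, for example, measured 1.99, 2.54 and 8.37 FPKM in MuPOX08340 F, S and T. What these differences between libraries come from was not tested.

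Between Ku70 S and T, 59 of the 83 members (71.1%) were higher in S, against 42.5% of all IDs with a mean of at least 10 counts. The sets are not alike, since 11 of the 83 members fell below that mean.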
